A study of Arabidopsis thaliana with 8 samples.

Results

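The 2 libraries from well-watered Arabidopsis plants that overexpress VaWRKY14 (OE) were compared directly with the 2 libraries from wild-type (WT) plants under drought, 4 of the 8 libraries of the series. They were chosen by their labels alone, and the comparison asks which parts of the drought state of WT plants the OE plants already had with normal watering, and which they lacked. All 8 libraries were from whole plants of the ecotype Columbia-0 that were 3 weeks old and grown in pots of peat moss. Drought was 5 days without water, and the other plants were kept under normal conditions. The labels call the OE material a mixture of transgenic plants and give neither the promoter that drives the transgene nor the number of lines, and no entry of the gene tables names the transgene, so its level could not be checked. The other 4 libraries, from watered WT and droughted OE plants, served as a reference. For droughted OE 1 the labels disagree: VaWRKY15 stands in the genotype field and VaWRKY14 in the title.

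WRKY proteins are plant transcription factors that bind W-box sequences and act mainly in responses to pathogens and to drought, salt and cold. In a drying plant, abscisic acid (ABA) is made from carotenoids by NCED enzymes, its PYR/PYL receptors inhibit PP2C phosphatases, and the SnRK2 kinases released from them activate ABF factors at ABRE sequences. A separate branch runs through the CBF and DREB factors, which bind DRE sequences upstream of genes for protective hydrophilic proteins such as COR15A and RD29A. Longer water loss lowers expression of photosynthesis genes, moves nitrogen and sugars out of leaves and often raises anthocyanin pigments.

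Library totals ran from 9591274 to 11378571 expected counts, so a gene with 3 counts had a level of 0.242 to 0.313 CPM, the usual unit for counts relative to the library total, here the TMM-scaled one. Between these 2 groups both genotype and watering differ, and for any single gene their parts in a difference cannot be told apart within the comparison. Nothing in the labels says that the 2 libraries of a group came from separate cultures or plants, so p-values measure the spread between these samples. All are bulk libraries, in which fewer cells of a type and less RNA per cell cannot be told apart. The leaf markers LHCB1.3, RBCS1A and RCA were abundant in all 8 libraries. The root markers were divided: CASP1 was at 0 in 7 of the 8. PHO1 had 252 to 486 counts, SCR 303 to 383 and SHR 126 to 212. These markers therefore do not show how much root the whole-plant samples held.

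Watered OE plants did not have the expression state of droughted WT plants. Of 19259 genes tested with edgeR, 3005 (15.6%) passed an adjusted p of 0.05: 1804 (9.37%) were higher and 1201 (6.24%) lower in watered OE than in droughted WT. A change of at least 2-fold was found for 354 of the higher genes (1.84%) and 339 of the lower genes (1.76%). For 8921 genes (46.3%) the 95% interval of the difference lay within 1.5-fold in either direction, and these are called close here. A further 7363 genes (38.2%) were neither called nor close, so the libraries do not show whether these differ. The 4 values of a gene did not overlap between the groups for 57.9% of all genes. The typical standard error of a log2 difference was 0.157. The count of calls rested on single libraries: 1145 genes were called without droughted WT 2, 1499 without watered OE 2, 2140 without watered OE 1 and 2267 without droughted WT 1. With upper-quartile scaling 1445 genes were higher and 1671 lower, so which direction held more calls depended on the scaling. DESeq2 called 2234 genes, 1600 higher and 634 lower.

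For orientation, drought against normal watering in WT gave 2505 calls (13%), and OE against WT with normal watering gave 75 (0.389%). Each of these comparisons shares a pair of libraries with the one described here, so their values are set beside it and not used as separate support. Droughted OE against watered WT gave 2261 calls (11.7%) and shares no library with it. That comparison was therefore used to define a drought state: 309 genes (1.6%) were at least 2-fold higher and 237 (1.23%) at least 2-fold lower in droughted OE than in watered WT. A difference due to watering has opposite signs in the 2 comparisons, and one due to genotype has the same sign. The set can therefore also hold genes that differ by genotype at either watering. Drought-raised and drought-lowered here name only the direction in droughted OE against watered WT.

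Most of this drought state was missing in watered OE plants. Of the 309 drought-raised genes, 172 (55.7%) were called lower in watered OE than in droughted WT, 5 (1.62%) higher and 2 (0.647%) close, and 130 (42.1%) were neither. Their median log2 difference was -1.12, against -0.0273 over all genes tested. Of the 237 drought-lowered genes, 163 (68.8%) were called higher, 3 (1.27%) lower and 3 (1.27%) close, with a median of 1.15. The close genes were LSU2 and AT5G17460 among the raised genes, and MBP1, AT1G52000 and AOC1 among the lowered ones. The 5 raised genes called higher were AT1G75945, AT1G25141, LpxC4, LpxC2 and AT1G24996. The 3 lowered genes called lower were MRD1, HEI10 and AT2G13550. Of the genes called higher or lower in this way, only HEI10 was called for drought against normal watering in WT, where it was higher (adjusted p = 0.0481). Without droughted WT 2 or without droughted OE 1, 108 drought-raised genes were called lower. Among the fits that left out 1 library, the counts of 2 and 3 close genes moved most without watered WT 2, to 13 and 27, and fell to 0 and 1 without watered OE 1.

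With no minimum fold the drought state held smaller changes, and more of it was close. Of 917 raised genes (4.76%), 440 (48%) were lower in watered OE, 163 (17.8%) were close and 9 (0.981%) were higher. Of 1344 lowered genes (6.98%), 918 (68.3%) were higher, 215 (16%) were close and 11 (0.818%) were lower. Both shares of close genes were below the 46.3% over all genes. Among the 215 close lowered genes, 11 were also called higher, and they are counted here only as close.

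**Figure D1:**
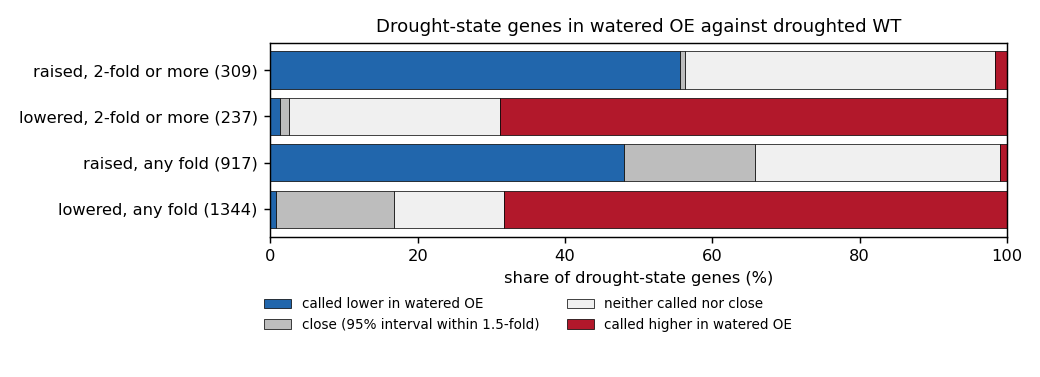
Share of drought-state genes (percent, x axis) that were lower, close, higher or neither in watered OE against droughted WT, for genes raised or lowered in droughted OE against watered WT at 2-fold or more or at any fold. At 2-fold or more, 55.7% of 309 raised genes were lower and 68.8% of 237 lowered genes were higher.

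The lists of pathway genes divided the comparison. Over all genes 9.37% were higher, 6.24% lower and 46.3% close. All 35 tested nuclear genes of photosynthesis were higher in watered OE, and 14 of 18 flavonoid and anthocyanin genes were lower, with none higher. Nitrogen and sugar remobilization had 6 of 16 genes lower and 2 higher. The cold and drought protective proteins had 5 of 15 higher, 1 lower and 4 close. Jasmonate synthesis and signalling had 10 of 23 genes close (43.5%), 3 higher and none lower, and the ABA receptors and core signalling had 12 of 23 close (52.2%), 5 lower and 1 higher; both close shares were near that of all genes. Median log2 differences were 1.31 for photosynthesis, -2.11 for anthocyanin, -0.33 for remobilization, 0.22 for the protective proteins, 0.02 for jasmonate and -0.24 for ABA signalling, where that of all genes was -0.0273.

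**Figure D2:**
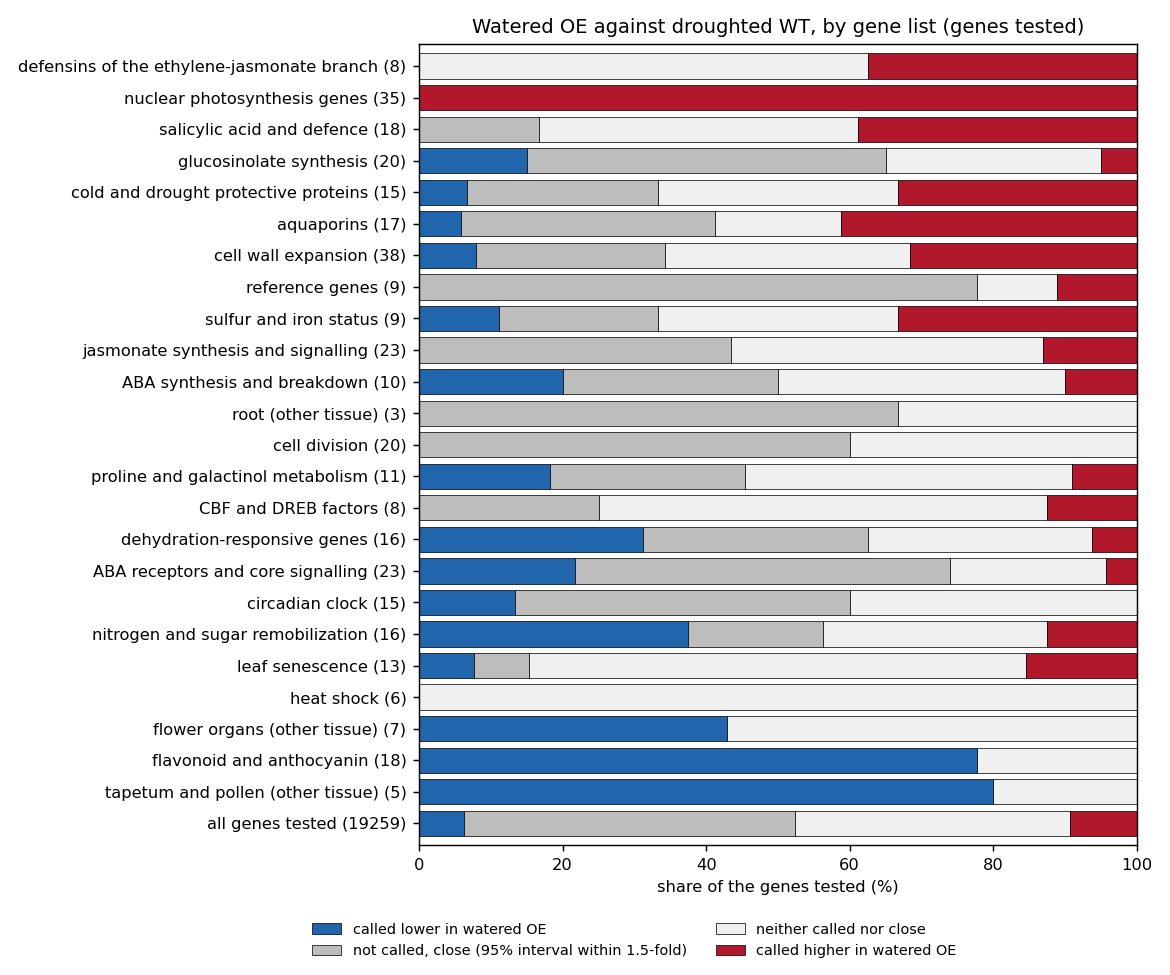
Share of the tested members of each gene list (percent, x axis) that were higher, lower, close or neither in watered OE against droughted WT, with all genes tested as the reference. Photosynthesis was entirely higher, anthocyanin was lower in 14 of 18 members, and the close shares of the ABA signalling (52.2%) and jasmonate (43.5%) lists were near the 46.3% of all genes.

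Several genes of the cold and drought protective proteins stood as high in watered OE as in droughted WT, or higher. COR15A, which encodes a chloroplast protein that protects membranes during freezing and drying, had 596 and 350 CPM in watered OE, 270 and 230 in droughted WT, and 147 and 146 in watered WT. The neighbouring copy COR15B had 563 and 399 CPM in watered OE, 246 and 167 in droughted WT and 185 and 191 in watered WT. For both genes each watered OE library lay above all 6 others. The log2 difference from droughted WT was 0.92 ± 0.21 (SE, adjusted p = 0.0178) for COR15A and 1.22 ± 0.20 (adjusted p = 0.00235) for COR15B. COR15B kept its call without any single library. COR15A lost it without droughted WT 1 (adjusted p = 0.0769), droughted WT 2 (0.19) or watered OE 1 (0.0522), and without watered OE 1 its difference was 0.49. The copies are close in sequence, and reads may be divided between them.

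RD29A, a classic target of both the DREB and ABA branches, had 269 and 241 CPM in watered OE, 197 and 172 in droughted WT, 217 and 234 in droughted OE and 127 and 108 in watered WT. The watered OE libraries were the highest and the watered WT libraries the lowest. The excess over droughted WT was 0.47 ± 0.13 on the log2 scale (adjusted p = 0.0206), and it missed the threshold without droughted WT 2 (adjusted p = 0.178) or watered OE 1 (0.13). RD29A was also called higher in droughted OE than in watered WT, so it was among the 20 genes called in the same direction in both comparisons. COR413IM1 and COR413-PM1, for membrane proteins of the cold-regulated COR413 family, were higher by 0.74 ± 0.16 (adjusted p = 0.00775) and 0.48 ± 0.12 (adjusted p = 0.0118). Both lost the call without droughted WT 2 (0.109 and 0.0969). COR413IM1 also lost it without watered OE 1 (0.0797) and COR413-PM1 without watered OE 2 (0.0676).

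The rest of the protective list was close or not resolved. The dehydrin genes COR47, ERD10 and ERD14 and the gene LEA14 were close: ERD10 had 361 and 360 CPM in watered OE against 354 and 318 in droughted WT, with 295 and 224 in watered WT. COR47 and ERD10 were 2 of the 5 protective genes that were raised in droughted OE. KIN2 had 865 and 686 CPM in watered OE against 676 and 519 in droughted WT, a difference of 0.38 ± 0.17 that missed the threshold (adjusted p = 0.167), and its near copy KIN1 may share reads with it. The dehydrin RAB18, an ABA-responsive marker, was at 3.16 and 5.73 CPM against 4.32 and 5.83, too low to be called or close. LTI30, another dehydrin gene, was the exception, with 5.13 and 5.73 CPM in watered OE against 10.6 and 10.8 in droughted WT (log2 difference -0.98 ± 0.28, adjusted p = 0.0323). Its call was lost without any 1 of the 6 libraries other than watered WT (0.0536 to 0.177). The count of 5 higher genes fell to 1 without droughted WT 2 and 2 without watered OE 1.

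The promoters of the 3 genes COR15A, COR15B and RD29A are shown because in each of them both watered OE libraries exceeded the other 6 libraries and they belong to the best-known DRE-controlled genes. Each sequence holds the 300 bases before the annotated gene start of TAIR10.1, read from 5′ to 3′ on the strand of the gene. Capitals mark matches, on either strand, to the DRE core CCGAC, the ABRE core ACGTG and the W-box TTGACC or TTGACT.
COR15A (chr2:17712331-17712630, minus strand): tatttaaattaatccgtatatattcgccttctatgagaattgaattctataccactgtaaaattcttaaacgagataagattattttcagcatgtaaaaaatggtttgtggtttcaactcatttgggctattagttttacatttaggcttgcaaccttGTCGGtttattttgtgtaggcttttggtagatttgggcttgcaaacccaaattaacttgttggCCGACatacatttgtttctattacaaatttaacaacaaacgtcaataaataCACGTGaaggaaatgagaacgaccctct
COR15B (chr2:17710434-17710733, minus strand): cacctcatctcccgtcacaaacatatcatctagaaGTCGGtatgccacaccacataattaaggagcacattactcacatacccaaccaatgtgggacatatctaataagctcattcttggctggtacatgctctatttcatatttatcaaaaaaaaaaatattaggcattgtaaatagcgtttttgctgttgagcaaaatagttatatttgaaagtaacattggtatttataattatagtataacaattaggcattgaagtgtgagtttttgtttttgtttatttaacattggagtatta
RD29A (chr5:21240417-21240716, plus strand): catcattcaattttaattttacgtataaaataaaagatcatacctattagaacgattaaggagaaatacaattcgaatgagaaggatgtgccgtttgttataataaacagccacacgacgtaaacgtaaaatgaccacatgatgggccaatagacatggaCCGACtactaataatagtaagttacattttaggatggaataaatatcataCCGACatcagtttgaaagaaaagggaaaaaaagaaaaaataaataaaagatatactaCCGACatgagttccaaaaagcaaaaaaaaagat
RD29A held 3 DRE cores, COR15A 2 and COR15B 1. Among the promoters of the list not shown, those of COR413IM1 and COR413-PM1, called higher, held 1 DRE core each. That of LTI30, the gene of the list called lower in watered OE, held 3. COR15A also held CACGTG, a palindrome that counts as 2 overlapping ABRE matches. Over the list, 6 of 15 promoters (40%) held a DRE core, 8 (53.3%) an ABRE core and 1 (6.67%) a W-box, where 15%, 25.8% and 31.4% of 19138 promoters of tested genes did. A match is a description of these letters and not a binding site.

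Of the CBF and DREB factors, CBF1 was called higher in watered OE, with 4.15 and 5.42 CPM against 1.57 and 2.19 in droughted WT. The watered WT libraries, at 3.61 and 2.12 CPM, lay below watered OE and overlapped droughted WT. Its difference of 1.33 ± 0.32 (adjusted p = 0.0114) lost the call without droughted WT 1 (0.0796) or watered OE 2 (0.102). CBF3 had 4.15 and 2.92 CPM in watered OE and 4.32 and 3.88 in droughted WT, against 0.78 and 1.83 in watered WT, but its interval was too wide to be called close. RAP2.1, which encodes a repressor of DRE-controlled genes, was close, with 8.49 and 8.02 CPM in watered OE, 7.86 and 9.87 in droughted WT and 4.29 and 4.42 in watered WT. DREB2A, an activator of drought and heat genes, was close too, and all 8 libraries held it at 6.46 to 9.03 CPM.

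Genes of ABA synthesis and signalling differed in direction. NCED3, the main drought-induced enzyme of ABA synthesis, had 14.1 and 12.6 CPM in watered OE, 7.56 and 7.28 in droughted WT and 8.19 and 5.77 in watered WT. Both watered OE libraries exceeded every other library. The difference from droughted WT was 0.85 ± 0.20 (adjusted p = 0.00841), and it missed the threshold without droughted WT 2 (0.0847) or watered OE 1 (0.059). CYP707A2, an enzyme that breaks ABA down, went the other way with 4.94 and 3.75 CPM against 12.6 and 11.5 (-1.46 ± 0.23, adjusted p = 0.000804). CYP707A4 of the same family was also called lower, but not with DESeq2 or a replicate block. CYP707A3, a family member with more counts, lay higher in watered OE without a call. It had 742 and 1144 counts in watered OE, 435 and 506 in droughted WT and 708 and 1040 in watered WT. ABA1 and ABA2, which act before and after NCED3 in ABA synthesis, and the aldehyde oxidase gene AAO3 were close.

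PP2CA, a phosphatase that restrains ABA signalling and whose mRNA ABA induces, had 135 CPM in both watered OE libraries, 151 and 157 in droughted WT and 72.3 and 87.1 in watered WT. The watered OE level was thus within 1.5-fold of droughted WT and above both watered WT libraries. OST1, the SnRK2 kinase of guard cells, and ABF3, an ABRE-binding factor, were close in the same way, with OST1 at 26.5 and 22.1 CPM in watered OE, 23.5 and 23.7 in droughted WT and 15.7 and 17 in watered WT. These 3 genes were raised in droughted OE. Other members of the same list did not reach the droughted level. HAI2, another PP2C gene, had 2.07 and 2.92 CPM against 6.88 and 5.75 (-1.33 ± 0.30, adjusted p = 0.00679), ABI5, a bZIP factor of seeds and stressed seedlings, was lower by 1.53 ± 0.26 on the log2 scale (adjusted p = 0.00124), and ABI2 was lower by 0.55 ± 0.17 (adjusted p = 0.0339). The call of HAI2 was lost without droughted WT 1 (0.0516) or watered OE 1 (0.0669), and the 5 lower genes of this list fell to 2 or 3 without any 1 of the 4 libraries compared and to 2 with DESeq2. ABI2 lost its call without any 1 of the 6 libraries other than watered WT (0.0507 to 0.194).

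**Figure D3:**
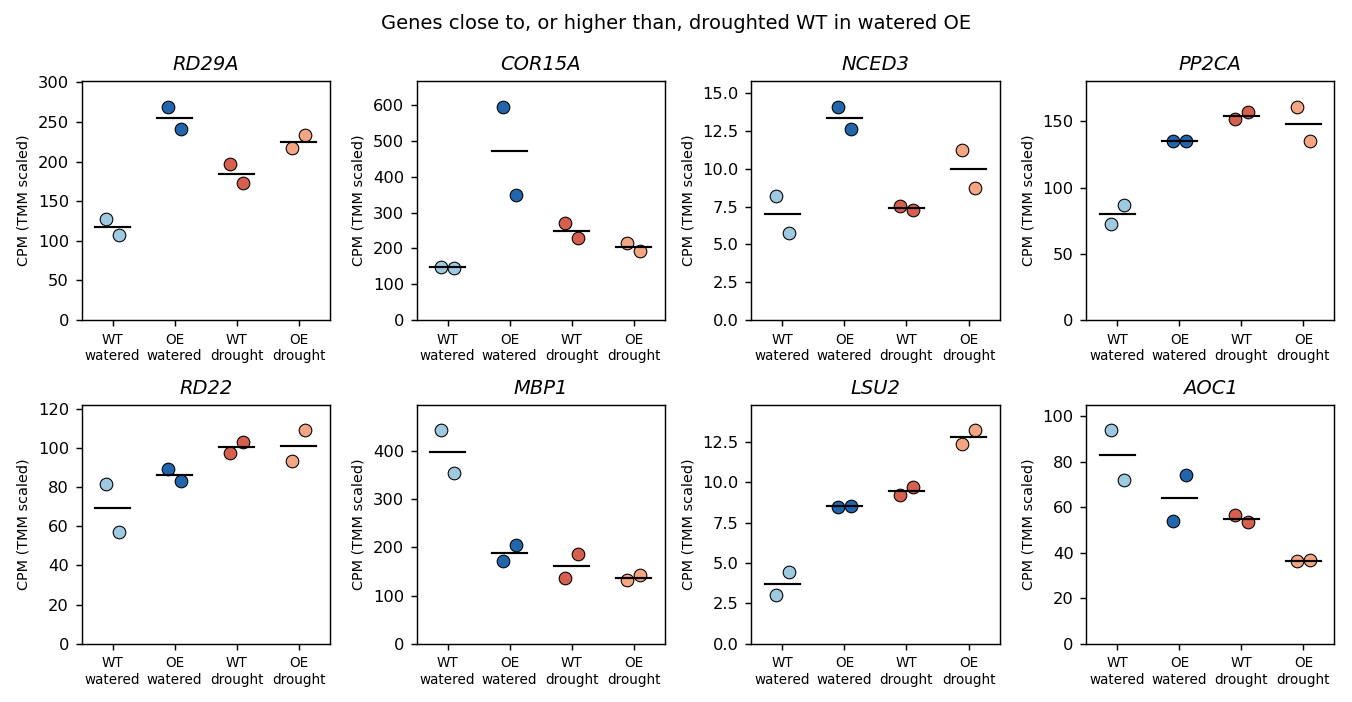
CPM (y axes, linear, TMM-scaled) of RD29A, COR15A, NCED3, PP2CA, RD22, MBP1, LSU2 and AOC1 in each of the 8 libraries, as points with a bar at the mean of each group. COR15A reached 596 and 350 CPM in watered OE against 270 and 230 in droughted WT, while MBP1 was near droughted WT in both watered OE libraries.

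Of the 5 close genes of the 2-fold drought state, LSU2, MBP1, AT1G52000 and AOC1 are given here with the lists to which they are related; 2 of 9 sulfur and iron genes (22.2%) and 10 of 23 jasmonate genes (43.5%) were close, where 46.3% of all genes were. LSU2, a gene of the small LSU family that sulfur shortage induces, had 8.49 and 8.54 CPM in watered OE, 9.23 and 9.71 in droughted WT and 3.02 and 4.42 in watered WT. MBP1, which encodes a myrosinase-binding protein of the glucosinolate defence system, had 171 and 205 CPM in watered OE, 135 and 186 in droughted WT and 443 and 354 in watered WT. AT1G52000 followed it, with 183 and 162 CPM in watered OE, 140 and 148 in droughted WT and 310 and 255 in watered WT. In these 3 genes the watered OE libraries lay with the droughted ones and apart from watered WT. MBP1 belongs to a family of similar genes, among which reads may be divided.

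AOC1, which encodes an allene oxide cyclase of jasmonate synthesis, had 54.1 and 74.4 CPM in watered OE, 56.5 and 53.5 in droughted WT and 93.8 and 71.9 in watered WT, so watered OE overlapped both. The repressor genes JAZ2, JAZ6 and JAZ9 and MYC2, the main jasmonate-responsive activator, were also lowered in droughted OE and close between watered OE and droughted WT. Of these, JAZ2 was not called for drought against normal watering in WT (adjusted p = 0.226). JAZ9 had 122 and 137 CPM in watered OE, 129 and 126 in droughted WT and 279 and 169 in watered WT. LOX2, the lipoxygenase that begins jasmonate synthesis, was not close: it had 1422 and 1265 CPM in watered OE, 653 and 510 in droughted WT and 2653 and 1840 in watered WT, a difference of 1.21 ± 0.19 (adjusted p = 0.000712). Watered OE libraries were thus between watered WT and droughted WT. JAZ1 was higher by 0.86 ± 0.17 (adjusted p = 0.0049), and AOC2 by 0.58 ± 0.17 (adjusted p = 0.033), although AOC2 lost the call without any 1 of 5 libraries (0.0557 to 0.276), namely all 4 OE libraries and droughted WT 2.

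In glucosinolate synthesis 10 of 20 genes (50%) were close, near the 46.3% of all genes. CYP79B2, which makes the precursor of indole glucosinolates, had 31.4 and 39.2 CPM in watered OE, 30.1 and 28.7 in droughted WT and 57.2 and 55.5 in watered WT. UGT74B1 and SOT18, enzymes of later steps, were lowered in droughted OE and close here. MAM3, which elongates the methionine side chain, was lower in watered OE, with 32.5 and 30.4 CPM against 58 and 67.6 in droughted WT (-0.998 ± 0.13, adjusted p = 0.000166), and both watered OE libraries lay at the level of watered WT, 30.2 and 37.7 CPM.

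Watered OE plants lacked the drought state of nitrogen and sugar remobilization: all 5 of its drought-raised genes were lower and both of its drought-lowered genes were higher. GLN1;4, a cytosolic glutamine synthetase gene, had 26.7 and 28.8 CPM in watered OE, 186 and 187 in droughted WT, 137 and 101 in droughted OE and 14.7 and 11.5 in watered WT. Both watered OE libraries were far below all 4 droughted libraries, and both were above watered WT. The difference from droughted WT was -2.75 ± 0.15 (adjusted p = 1.44e-07). The sucrose transporter gene SWEET13 had 2.86 and 2.81 CPM against 13.1 and 18.3 (-2.47 ± 0.22, adjusted p = 8.02e-06), with 1.37 and 1.15 in watered WT. Its relative SWEET14 had no count in either watered OE library, which allows up to 3 counts in each, and 17 and 10 counts in droughted WT.

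GLN1;1 was lower by 0.88 ± 0.15 (adjusted p = 0.00137) and GLN1;3 by 0.54 ± 0.12 (adjusted p = 0.00799). In the other direction ASN2, an asparagine synthetase gene, had 28.2 and 39.2 CPM against 17.5 and 18 in droughted WT (0.92 ± 0.16, adjusted p = 0.00114). GDH2, a glutamate dehydrogenase gene, was higher by 0.96 ± 0.22 (adjusted p = 0.0205), a call lost without droughted WT 2 (0.157). GLN1;3 lost its call without droughted WT 2 (0.0614) or watered OE 1 (0.0587). ASN1, which sugar starvation induces, had 48.6 and 99.4 CPM against 20.2 and 19.6 and missed the threshold (adjusted p = 0.0607). Of the 13 leaf senescence genes, SEN1 and DIN10, both dark-inducible, were higher, by 1.52 ± 0.22 (adjusted p = 0.00313) and 1.00 ± 0.17 (adjusted p = 0.00205), and WRKY53, a senescence regulator, was lower (-0.43 ± 0.12, adjusted p = 0.0211). The call of WRKY53 was lost without droughted WT 2 (0.164), watered OE 1 (0.12) or watered OE 2 (0.0731). SAG12, a late senescence protease gene, had no count in watered OE and 63 and 55 in droughted WT, a difference that was not called. In droughted OE it reached 2254 and 727 counts.

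Among the dehydration-responsive genes the list was divided. LTP3 and LTP4, neighbouring lipid transfer protein genes, had 4 and 1 counts and 1 and 0 counts in watered OE, against 50 and 95 and 31 and 74 in droughted WT. HIS1-3, a linker histone variant that drought induces, had 9.77 and 14.2 CPM against 36.2 and 41.2 (-1.70 ± 0.19, adjusted p = 0.000119), and the watered WT libraries, at 13.1 and 9.91, overlapped watered OE. ATHB12, a homeodomain factor of the ABA response, was at 4.34 and 4.48 CPM, below droughted WT at 12.2 and 10.2 and also below watered WT at 7.8 and 6.83. Its difference from droughted WT was -1.34 ± 0.20 (adjusted p = 0.000448). RD22 and ERD7, which were raised in droughted OE, were close: RD22 had 89.2 and 82.8 CPM in watered OE, 97.4 and 103 in droughted WT and 81.4 and 57.2 in watered WT, so its watered OE values lay between. ERD7 had 131 and 166 CPM in watered OE, 128 and 116 in droughted WT and 124 and 108 in watered WT. It was not called for drought in WT (adjusted p = 0.792), so its closeness does not separate the droughted from the watered WT level.

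GolS2, the drought-induced galactinol synthase gene of raffinose synthesis, had 12.8 and 12.4 CPM in watered OE against 31.5 and 36.1 in droughted WT, 36.7 and 38.6 in droughted OE and 8.68 and 9.72 in watered WT. The difference from droughted WT was -1.42 ± 0.13 (adjusted p = 1.21e-05). Of the proline genes P5CS1, the stress-induced synthesis enzyme, was close, with 62.4 and 64.6 CPM against 55.2 and 59.5, and watered WT had 59 and 66 CPM. P5CS2, another synthesis gene, was lowered in droughted OE and called higher in watered OE than in droughted WT (0.53, adjusted p = 0.00702). It lost that call without droughted WT 2 (difference 0.50) or watered OE 2 (0.48). PRODH1, which breaks proline down, was lower (-1.05 ± 0.26, adjusted p = 0.0402) but missed the threshold without any 1 of 5 libraries (0.0804 to 0.179), namely both watered WT, both watered OE and droughted WT 2. NUDT24, a Nudix hydrolase gene, had 2 and 3 counts in watered OE and 135 and 223 in droughted WT. It was at 0 in both watered WT libraries, and its call was lost without watered OE 1 (0.0602) or watered OE 2 (0.0652).

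All 18 flavonoid and anthocyanin genes had a lower mean in watered OE, 14 of them called and 13 of those at least 2-fold lower. PAP2, a MYB activator of anthocyanin genes, had 1.97 and 1.04 CPM in watered OE, 27.6 and 31.6 in droughted WT, 16.9 and 12.6 in droughted OE and 1.85 and 0.962 in watered WT. Watered OE and watered WT overlapped, and all 4 droughted libraries lay above them. The difference from droughted WT was -4.28 ± 0.27 (adjusted p = 5.13e-07). UF3GT, a glycosyltransferase of the last steps, was lower by 3.81 ± 0.33 (adjusted p = 8.02e-06) and F3H, an early hydroxylase, by 1.85 ± 0.22 (adjusted p = 0.000105). GSTF12, which carries anthocyanins to the vacuole, had 4.05 and 4.27 CPM against 35.8 and 61.8. MYBL2, a repressor of the pathway, was lower too (-0.55 ± 0.12, adjusted p = 0.00757), and it was also lower in droughted OE than in watered WT. MYBL2 lost its call without droughted WT 2 (0.0697) or watered OE 2 (0.0558), and GSTF12 without watered OE 2 (0.0567). The 14 lower genes fell to 8 without droughted WT 2, 8 without watered OE 2 and 9 without watered OE 1. The calls of PAP2, UF3GT and F3H held in each of these fits.

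The promoters of GLN1;4 and PAP2 are shown as examples of drought-raised genes that were lower in watered OE, 1 from the remobilization list and 1 from the anthocyanin list, with the same marks and build as above.
GLN1;4 (chr5:5424750-5425049, minus strand): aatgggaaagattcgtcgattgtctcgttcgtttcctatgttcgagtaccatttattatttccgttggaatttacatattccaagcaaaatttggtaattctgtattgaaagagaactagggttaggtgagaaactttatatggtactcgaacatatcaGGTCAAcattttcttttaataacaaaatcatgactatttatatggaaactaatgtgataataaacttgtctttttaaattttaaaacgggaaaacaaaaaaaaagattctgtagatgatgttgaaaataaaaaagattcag
PAP2 (chr1:24763641-24763940, plus strand): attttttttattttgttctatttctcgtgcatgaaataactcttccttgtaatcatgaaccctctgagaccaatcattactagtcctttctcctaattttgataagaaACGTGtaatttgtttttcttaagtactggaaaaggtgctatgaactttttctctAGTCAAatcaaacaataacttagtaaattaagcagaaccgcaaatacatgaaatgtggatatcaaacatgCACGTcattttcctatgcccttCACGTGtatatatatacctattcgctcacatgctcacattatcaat
GLN1;4 held 1 W-box and neither other motif, and PAP2 held 4 ABRE matches, of which 2 overlap in CACGTG, and 1 W-box. Of the 172 drought-raised genes that were lower in watered OE, 33.1% held an ABRE core, 12.2% a DRE core and 28.5% a W-box, and of 162 promoters of drought-lowered genes that were higher, 36.4%, 11.1% and 27.2% did. In all genes tested the shares were 25.8%, 15% and 31.4%.

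**Figure D4:**
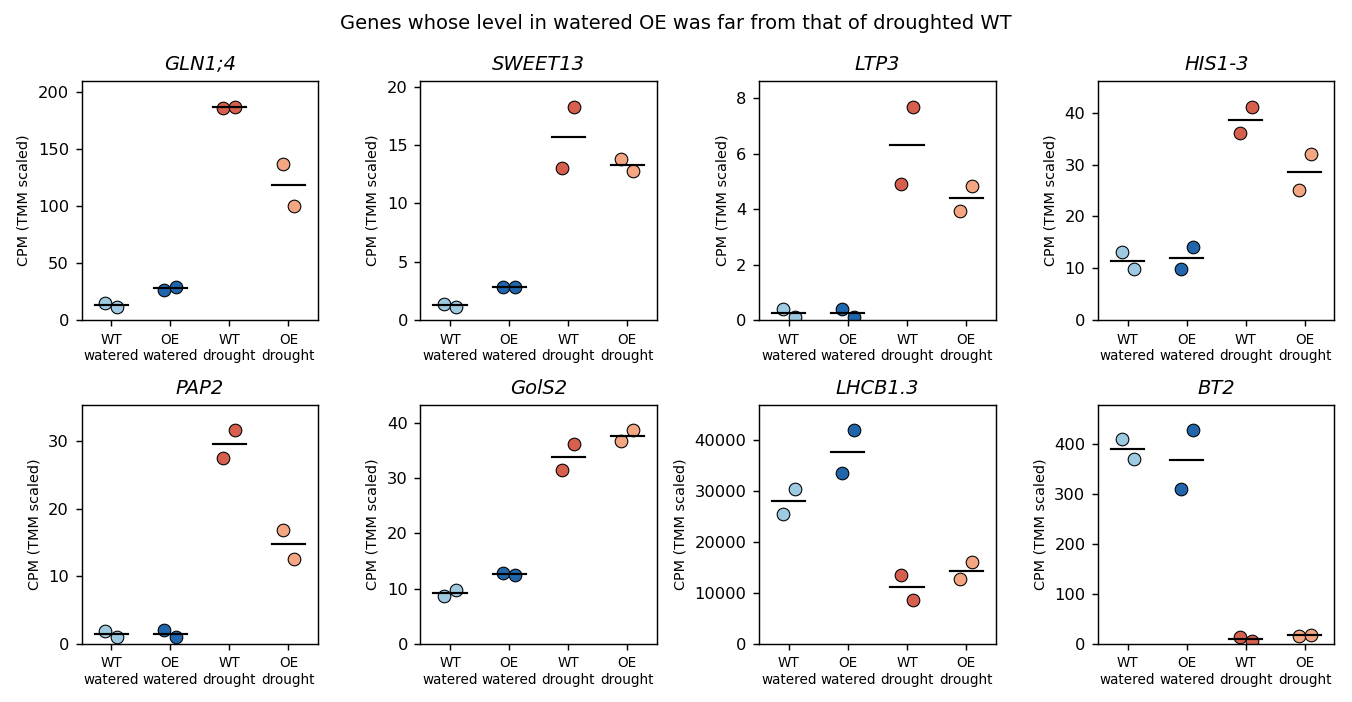
CPM (y axes, linear, TMM-scaled) of GLN1;4, SWEET13, LTP3, HIS1-3, PAP2, GolS2, LHCB1.3 and BT2 in each of the 8 libraries, as points with a bar at the mean of each group. In all 8 genes the watered OE libraries lay apart from droughted WT, for example 26.7 and 28.8 against 186 and 187 CPM for GLN1;4.

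Photosynthesis genes separated watered OE from droughted WT without exception. All 35 nuclear genes tested were called higher, 29 of them at least 2-fold, with log2 differences from 0.61 to 3.92. LHCB1.3, an abundant light-harvesting protein gene of photosystem II, had 33544 and 41994 CPM in watered OE, 13547 and 8601 in droughted WT, 12670 and 16129 in droughted OE and 25528 and 30530 in watered WT. Both watered OE values lay above both watered WT values. The difference from droughted WT was 1.77 ± 0.27 (adjusted p = 0.000579). LHCB1.4, a close copy, had 4636 and 6382 CPM against 488 and 242 (3.92 ± 0.52, adjusted p = 0.00605), and reads may be divided among the LHCB1 copies.

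RBCS3B, a Rubisco small subunit gene, was higher by 1.80 ± 0.21 (adjusted p = 7.14e-05) and PSBQA of photosystem II by 1.41 ± 0.16 (adjusted p = 5.03e-05). PSAN of photosystem I had 1073 and 1275 CPM in watered OE against 480 and 352 in droughted WT (adjusted p = 6.92e-05). The smallest difference was that of SBPASE, a Calvin cycle enzyme gene, at 0.61 ± 0.15 (adjusted p = 0.0108), which lost its call without droughted WT 2 (0.0937) or watered OE 2 (0.152). Of the 32 photosynthesis genes lowered in droughted OE, all 32 were higher in watered OE than in droughted WT, and none was close. The median difference of the 35 genes was 0.26 for OE against WT with normal watering and -0.98 for drought against normal watering in WT. The count stayed at 28 or more of 35 when any 1 library was left out.

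BT2, a nitrate- and sugar-responsive BTB protein gene, was among the 8 most changed genes higher in watered OE, with 309 and 427 CPM in watered OE, 13.1 and 4.86 in droughted WT, 16.4 and 17.2 in droughted OE and 410 and 369 in watered WT. The watered libraries of both genotypes overlapped, and all 4 droughted libraries were far lower. Its difference from droughted WT was 5.39 ± 0.44 (adjusted p = 0.00149). ACS11, an ethylene synthesis enzyme gene, had 5.73 and 10.1 CPM against 0.688 and 0.809 (3.37 ± 0.44, adjusted p = 0.000374). AT1G49500 and AT2G20670 were higher by 4.39 ± 0.70 (adjusted p = 0.023) and 4.01 ± 0.70 (adjusted p = 0.0303). AT1G49500 lost the call without any 1 of 6 libraries, all but the droughted WT pair (0.0531 to 0.0979). AT2G20670 lost it without any 1 of 5, both watered pairs and droughted WT 2 (0.0659 to 0.117).

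Of 8 defensin genes tested in the ethylene and jasmonate branch, 3 were called higher in watered OE than in droughted WT and none lower. PDF1.3 had 84 and 74.3 CPM in watered OE, 1.28 and 0.243 in droughted WT and 177 and 103 in watered WT. PDF1.2B had 62.5 and 51.5 CPM, 4.52 and 2.83 in droughted WT and 230 and 115 in watered WT. In both genes the watered OE libraries lay below the watered WT libraries, a difference that was not called (adjusted p = 0.607 for PDF1.3 and 0.323 for PDF1.2B), and above droughted WT. They were called higher than droughted WT, by 6.77 ± 0.77 (adjusted p = 0.00793) and 3.97 ± 0.56 (adjusted p = 0.0135), but PDF1.2B missed the threshold without any 1 of the 4 libraries (0.0622 to 0.11) and PDF1.3 without droughted WT 2 (0.0664). PDF1.2A was also called (3.30 ± 0.62, adjusted p = 0.0334) and missed the threshold without any 1 of the 6 libraries other than watered WT (0.0639 to 0.172). The PDF1.2 and PDF1.3 genes are near copies among which reads may be divided.

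Of 18 genes tied to salicylic acid and defence, 7 were higher and none lower. CBP60G, an activator of salicylic acid synthesis, had 42.9 and 52 CPM against 31.1 and 29 in droughted WT (0.66 ± 0.13, adjusted p = 0.00259), and the salicylic acid receptor gene NPR3 was higher by 0.58 ± 0.11 (adjusted p = 0.00232). PR1, the usual output marker, had 30.7 and 21.3 CPM against 13.8 and 0.809, a spread that left it uncalled (adjusted p = 0.364). The 7 higher genes fell to 2 without droughted WT 2, 2 without watered OE 2, and 4 without watered OE 1 or either droughted OE library.

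Among the called genes of water transport and the cell wall more were higher than lower in watered OE. The same held for all called genes (1804 higher, 1201 lower), though not with upper-quartile scaling (1445 and 1671). Of 17 aquaporin genes tested 7 were higher, 1 lower and 6 close (35.3%), and 26.3% of the cell wall genes were close. Of all genes tested, 9.37% were higher, 6.24% lower and 46.3% close. PIP2;2, a plasma membrane aquaporin gene, had 61.3 and 64.4 CPM in watered OE, 33.6 and 27.4 in droughted WT and 54.7 and 51.7 in watered WT (1.05 ± 0.13 against droughted WT, adjusted p = 0.000123). The vacuolar aquaporin gene TIP2;2 was higher by 0.98 ± 0.12 (adjusted p = 0.000119), and PIP2;5 was the 1 aquaporin gene called lower (-0.85 ± 0.16, adjusted p = 0.0027). All 4 aquaporin genes lowered in droughted OE were higher and the 1 raised there was lower. The 7 higher aquaporin genes fell to 3 without droughted WT 2 and 4 without watered OE 2. In the cell wall list 12 of 38 genes were higher, 3 lower and 10 close, and the 12 fell to 6 without droughted WT 2. XTH4, a wall-remodelling enzyme gene, had 578 and 650 CPM against 284 and 258 (1.18 ± 0.16, adjusted p = 0.000226), and EXPA5, an expansin gene, was higher by 0.86 ± 0.15 (adjusted p = 0.00125).

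The ferritin genes FER1, FER3 and FER4, for iron-storing proteins of plastids, were lowered in droughted OE and higher in watered OE than in droughted WT. FER3 had 59.4 and 70.1 CPM against 34.3 and 33.1, and 58.8 and 71.2 in watered WT (0.94 ± 0.13 against droughted WT, adjusted p = 0.000287). FER4 missed the threshold without droughted WT 2 (0.1) or watered OE 2 (0.0555). Of 15 clock genes 7 were close (46.7%, near the share of all genes) and 2 lower: CCA1, a morning factor, had 0.889 and 2.4 CPM against 5.3 and 8.09 (-2.04 ± 0.36, adjusted p = 0.00164), and PRR5 was lower by 0.60 ± 0.12 (adjusted p = 0.00327). Sampling times are not given in the labels. None of 20 cell division genes was called and 12 were close (60%), and none of 6 heat shock genes was called or close.

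Across all 19259 genes, the comparison ran against that of droughted OE with watered WT, which uses the other 4 libraries. Pearson's r was -0.464 and Spearman's rho -0.595 across genes, which are not independent replicates. Of the genes called in both comparisons, 1369 went in opposite directions and 20 in the same. The 1369 were 45.6% of the calls described here and 60.5% of the calls of the other comparison, and the 20 were 0.666% of the calls described here. Of these 20, 9 were higher and 11 lower in OE.

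**Figure D5:**
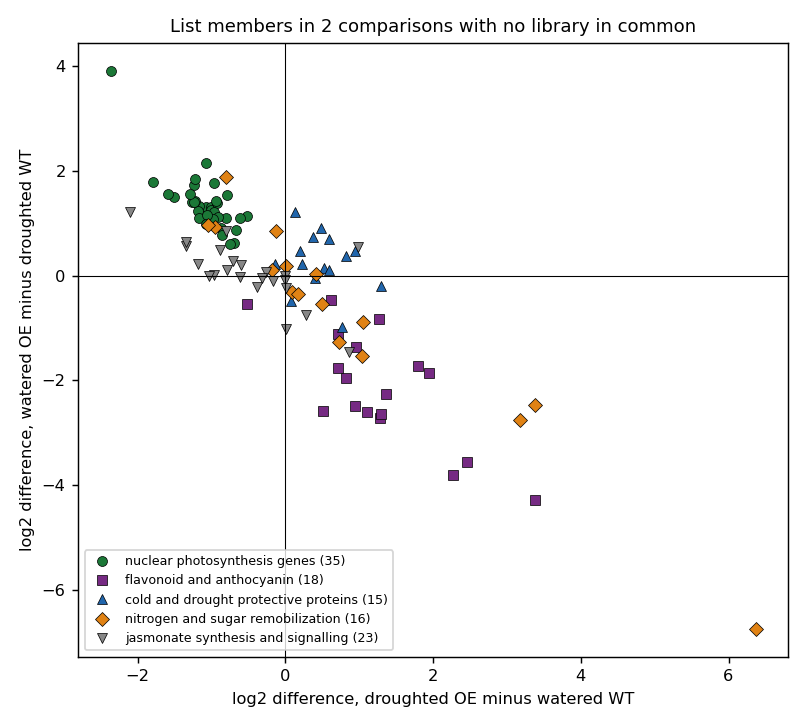
Log2 difference of droughted OE against watered WT (x axis) and of watered OE against droughted WT (y axis) for the genes of 5 lists, 1 point per gene; the comparisons share no library. The 35 photosynthesis genes all lie above 0 on the y axis and the 18 anthocyanin genes all below it, while the cold protective genes spread above and below 0.

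In the genes with the largest difference in the same direction in both comparisons, all OE libraries lay on the same side of all WT libraries. Genotype was not tested among the droughted plants. With normal watering, AT1G75945 and AT2G13550 were not called for OE against WT (adjusted p = 0.0936 and 0.0782). HEI10, a meiotic crossover gene, had 1.78 and 2.08 CPM in watered OE, 2.22 and 1.45 in droughted OE, 58.3 and 56.3 in droughted WT and 44.4 and 43.8 in watered WT (-4.88 ± 0.18 against droughted WT, adjusted p = 3.9e-10). MRD1, its neighbour on chromosome 1, had 6 and 1 counts in watered OE and 448 and 473 in droughted WT. The sources used here do not say if counting was stranded, and the pair overlaps, so they may share reads. LpxC2, LpxC4 and AT1G24996 were higher in OE in both comparisons. None of them was called for drought against normal watering in WT (adjusted p = 0.0708, 0.61 and 0.496). LpxC2, for an enzyme of lipid A synthesis, had 838 and 716 CPM in watered OE and 804 and 748 in droughted OE. It had 267 and 262 in droughted WT and 205 and 199 in watered WT. The difference of watered OE from droughted WT was 1.55 ± 0.14 (adjusted p = 8.02e-06). LpxC2 and LpxC4 belong to a group of near-identical copies, and the copy from which their reads came is uncertain. AT1G75945 was higher by 3.77 ± 0.68 (adjusted p = 0.013) but lost the call without any 1 of the 4 libraries (0.0575 to 0.14), and AT2G13550 was lower and lost it without watered OE 1 (0.0505).

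Summed flower and anther genes were lower in every watered library than in any droughted one. Watered OE 2 lay within the watered WT values and watered OE 1 below them. The summed level of 7 flower organ genes was 6.02 and 21.7 CPM in watered OE, 30.6 and 37.5 in droughted WT, 74.5 and 53.8 in droughted OE and 24.8 and 20 in watered WT. The summed level of 5 tapetum and pollen genes was 6.32 and 12.1, 21.2 and 24.1, 45 and 38.5, and 14.4 and 11.5 CPM in the same order, with 3 of the 5 at 0 in watered OE 1. Of the flower genes 3 were called lower in watered OE, and of the tapetum genes 4. MS2, a pollen wall enzyme gene, had 0 and 2 counts in watered OE and 47 and 69 in droughted WT. The flower count became 0 without watered OE 1, 6 without watered OE 2 and 1 without either droughted WT library. The tapetum count became 1 without droughted WT 2 and 2 without droughted WT 1 or watered OE 1. The part of flower tissue in the other differences was not tested. Summed root markers, at 79.1 and 74.1 CPM in watered OE and 76.6 and 78.7 in droughted WT, overlapped, and of 9 reference genes 7 were close and 1, ACT2, was higher (0.65 ± 0.14, adjusted p = 0.00691), which lost its call without droughted WT 2 (0.0666) or watered OE 2 (0.0545).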

How the data were processed

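Each library has 1 deposited table in which the authors give, per the file headers, an expected count that is not normalized. The tables also hold FPKM values made by the authors, which were not used. STAR, featureCounts, edgeR, HISAT2 2.0.5 and the build TAIR10 are named in the submitters' processing notes without their roles; which program made the counts is not given in the sources used here. Between 88.06% and 88.81% of the listed counts per library are whole numbers to within 0.005. Genes absent from a library's table were set to 0. Groups came from the sample titles. Symbols came from the TAIR10.1 annotation, which matched 23929 of 24132 listed genes (99.2%), with usual names for some loci.

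Rounded expected counts were tested with edgeR 4.0.16 (limma 3.58.1, R 4.3.3) on the 19259 genes that passed filterByExpr at a minimum count of 10. TMM scaling was used, and all 8 libraries entered a single quasi-likelihood fit of group means (4 residual degrees of freedom per gene, biological coefficient of variation 10.2%). Tests were two-sided with Benjamini-Hochberg adjustment over all genes, and an adjusted p under 0.05 was called. A gene was close where the 95% interval lay within 1.5-fold. Differences are log2 of watered OE over droughted WT, with standard errors. For genes of a few counts the fitted change depends on the prior count, so counts are given instead. The 95% intervals rest on the spread between libraries as estimated by the fit. Limits on counts of 0 cover counting error only. The model was also run on simulated counts with the same spread for every gene, which cannot speak to the dependence on single libraries.

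The libraries compared, the gene lists and the tests were chosen with earlier results of these data known. Named were the 8 most changed genes per direction with at least 5 CPM in the higher group, up to 3 called and 2 close genes per list, drought-state genes that were close or moved the same way, and 18 fixed markers. List members named beyond this rule, such as ABI2, ATHB12, GDH2, GLN1;1, JAZ9, LTI30, MYBL2, OST1, PIP2;5, SAG12, SBPASE and SWEET14, were chosen after their values were seen. Same-numbered libraries of different groups did not deviate together (correlations from -0.0804 to 0.0625), so the replicate numbers were not used to pair them. Alternatives were other scalings (median-of-ratios, upper-quartile), no filter or a minimum count of 50, the 4 libraries alone, a replicate block, each library left out, a 90% interval, a 2-fold margin and DESeq2 1.42.0. Promoters of 300 bases were read from the TAIR10.1 genome for 19138 tested genes.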

Additional observations from a re-analysis of the deposited data

How the results depend on the processing

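With 2 libraries per group, single libraries decided how many genes passed, while no called named gene reversed in direction in any setting. Of 76 called named genes 44 were called in all 15 settings tried, and 3 uncalled ones passed in at least 1. Leaving out 1 library gave 1145 to 3262 calls, with 727 to 1904 higher and 418 to 1359 lower, and 802 to 2339 calls for droughted OE against watered WT. Drought-raised genes called lower ranged from 108 to 206, drought-lowered genes called higher from 123 to 214, close genes from 6661 to 9055, close raised genes from 0 to 13 and close lowered genes from 1 to 27. Requiring 2-fold left 693 calls, 354 higher and 339 lower, and 546 for droughted OE against watered WT. DESeq2 called 634 genes lower; closeness was not computed with it. With no minimum fold, 440 raised genes were lower, 918 lowered genes higher, and 163 raised and 215 lowered genes close. The close raised genes, 2 as reported, were 1 with upper-quartile scaling, 1 with a minimum count of 50, 7 with a 90% interval and 29 with a 2-fold margin. The close lowered genes, 3 as reported, were 5 with only the 4 libraries compared, 6 with a 90% interval and 26 with a 2-fold margin, which made 14721 genes close in all. Why these counts moved was not tested. Among counts of list members called, 599 stayed within 1.5 times the reported count and 121 did not.

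With the replicate number as a block 2833 genes were called, 1722 higher and 1111 lower; the samples share only a number, since no pair of groups had a correlation over 0.1.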
